A study of Mus musculus with 18 samples.

Results

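Chemokines and their receptors were examined in the RNA-sequencing counts of the mouse dorsal horn of the spinal cord (DHSC) after formalin. The members were taken by name: 69 rows of the count table, of 55573 genes in all, had a symbol that begins with Ccl, Ccr, Cxcl, Cxcr, Cx3cl, Xcl, Xcr or Ackr followed by a digit. They comprised 39 ligand genes (among them *Cxcl11*, annotated as a polymorphic pseudogene), 22 receptor genes and 8 pseudogenes or further copies. Of these, 35 genes (25 ligands and 10 receptors) had at least 10 counts in 6 or more of the 18 samples, and these are the reported genes. The other 34 are accounted for by their counts.

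The samples were ipsilateral DHSC of adult C57BL/6J mice, frozen 2 h after an injection of 2% formalin into the hindpaw. They fell into 3 groups of 6 each, named male, F1/proestrus and F2/metestrus, the last 2 being female. F1 and F2 are the names the study gave to females by the length of the pause, or interphase, in their pain behaviour, and each name goes with its stage of the estrus cycle. All 18 mice had received formalin, so every comparison was between groups of injected animals and no effect of formalin itself was measured.

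Chemokines are small secreted proteins that direct the movement of leukocytes along concentration gradients. They are sorted by the spacing of their first cysteines into the CC, CXC, CX3C and XC families, and they act on receptors of the same names that couple to inhibitory G proteins, whereas the atypical receptors (Ackr) bind chemokines without that coupling and remove or transport them. In the spinal cord fractalkine (*Cx3cl1*) of neurons signals to *Cx3cr1* on microglia, and *Ccl2*, *Cxcl1* and *Cxcl12* have been studied as mediators between neurons, glia and infiltrating leukocytes in pain.

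Between 73590509 and 125724156 reads were counted per sample, and the 69 genes took 0.0509% to 0.0586% of them. Levels are given as CPM, the counts scaled to the library total after TMM normalization, and levels of different genes are set side by side only as CPM per kilobase of exon. A gene with 3 counts, the smallest signal considered, had 0.0240 to 0.0407 CPM, and this floor covers counting error only. The marker genes of dorsal horn neurons, astrocytes and microglia were present in every sample, and no marker gene of the lists examined was at 0 in all samples. The libraries carry numbers in 2 series, 27 to 35 (replicates 1 to 3) and 188 to 196 (replicates 4 to 6), with 3 samples of every group in each. Some samples stood apart: F1/proestrus sample 5 had a summed level of 555 CPM for 6 sensory ganglion neuron markers, against 6.26 to 60.8 CPM in the others, and F2/metestrus samples 2 and 5 had the highest sums of 16 interferon-inducible genes, at 219 and 323 CPM.

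The 250 bases upstream of the start of 4 ligand genes are shown here because the results turn on them: *Cxcl9* and *Cxcl10*, ligands of *Cxcr3* that were high together in the same few samples, and *Cxcl1* and *Cxcl2*, neutrophil ligands that were near the floor. The sequences are from RefSeq, GRCm38.p6, in the direction of transcription. *Cxcl9* lies on the minus strand, with the window at chr5:92328080-92328329, and *Cxcl10* on the same strand at chr5:92348890-92349139. *Cxcl1* at chr5:90890995-90891244 and *Cxcl2* at chr5:90903649-90903898 lie on the plus strand. Capitals mark a match, on either strand, to an interferon-stimulated response element (GAAA, any 2 bases, GAAA) or to a kappaB site (GGGA, any base, TTTCC).
Cxcl9: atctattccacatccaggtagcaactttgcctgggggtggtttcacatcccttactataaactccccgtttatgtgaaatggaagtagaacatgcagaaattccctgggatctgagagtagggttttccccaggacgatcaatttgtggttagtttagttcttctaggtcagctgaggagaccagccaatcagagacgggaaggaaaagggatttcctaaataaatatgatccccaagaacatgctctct
Cxcl10: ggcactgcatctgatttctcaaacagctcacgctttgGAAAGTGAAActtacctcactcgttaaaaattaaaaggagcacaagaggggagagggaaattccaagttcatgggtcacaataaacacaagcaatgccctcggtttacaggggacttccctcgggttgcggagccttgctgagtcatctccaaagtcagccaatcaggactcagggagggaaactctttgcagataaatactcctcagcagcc
Cxcl1: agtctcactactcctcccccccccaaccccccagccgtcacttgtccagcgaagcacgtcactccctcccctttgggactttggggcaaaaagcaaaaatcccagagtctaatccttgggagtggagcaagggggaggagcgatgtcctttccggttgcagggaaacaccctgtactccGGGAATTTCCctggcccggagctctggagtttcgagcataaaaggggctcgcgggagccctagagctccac
Cxcl2: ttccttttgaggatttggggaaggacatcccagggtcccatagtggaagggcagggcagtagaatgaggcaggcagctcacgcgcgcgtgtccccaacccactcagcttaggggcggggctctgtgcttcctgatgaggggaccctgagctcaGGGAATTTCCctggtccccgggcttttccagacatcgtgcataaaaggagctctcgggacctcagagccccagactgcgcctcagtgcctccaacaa
The interferon element of *Cxcl10* lay 213 to 204 bases upstream, and the kappaB matches lay 71 to 62 bases upstream in *Cxcl1* and 97 to 88 bases upstream in *Cxcl2*. Of 32851 RefSeq windows of this length, 2.98% held the first motif and 0.356% the second. Windows were found for 45 of the 64 member symbols. The interferon element was present in 3 of them (*Ccl19*, *Cxcl10* and *Cxcl14*) and the kappaB site in 4 (*Ccr3*, *Cxcl1*, *Cxcl2* and *Cxcl3*). All 3 genes with the interferon element were among the reported members, and none with a match to this kappaB pattern was. Windows were found for 23 of the 35 reported genes. Only these exact letters were searched, so a reported gene without a match may hold another form of either motif. These are matches of letters and not measured binding.

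Among the ligands, *Cx3cl1* was by far the most abundant. It had 101 ± 6.15 CPM per kilobase (SD, n = 18), above 98.0% of the genes tested between the sexes, and 72.6% of all counts on the members. Its CPM ranged from 369 to 430 in males, from 372 to 430 in F1/proestrus and from 369 to 446 in F2/metestrus. The 3 groups covered nearly the same range, and the coefficient of variation over all samples was 6.06%. *Cx3cr1*, the receptor of fractalkine on microglia, is left out by the naming rule, and it had 6.70 ± 0.852 CPM per kilobase (SD, n = 18).

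*Cxcl14*, a homeostatic chemokine of epithelia and neurons, came second with 21.6 ± 2.43 CPM per kilobase (SD, n = 18). It was followed by *Cxcl12*, the ligand of *Cxcr4* and *Ackr3*, with 5.07 ± 0.631 and by *Ccl27a*, a ligand of *Ccr10*, with 4.66 ± 0.715 CPM per kilobase. *Cxcl16*, a membrane-bound ligand of *Cxcr6*, had 1.82 ± 0.32 CPM per kilobase. The ranges of *Cx3cl1*, *Cxcl14* and *Cxcl12* did not overlap over the 18 samples, while *Cxcl12* was above *Ccl27a* in 12 of 18 samples only, so that these neighbours were not separated. Below *Cxcl16*, each ligand overlapped with the next in the order, from *Ccl6* (1.58 CPM per kilobase) down to *Ccl28* (0.046 CPM per kilobase). With coding length or the longest transcript in place of all exons, *Ccl25* entered the 5 highest ligands. The order of *Cxcl12* and *Ccl27a* also depended on the length used. Per kilobase of coding length they had 112 and 15.1 CPM, and per kilobase of the longest transcript 7.37 and 11.1 CPM.

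**Figure D1:**
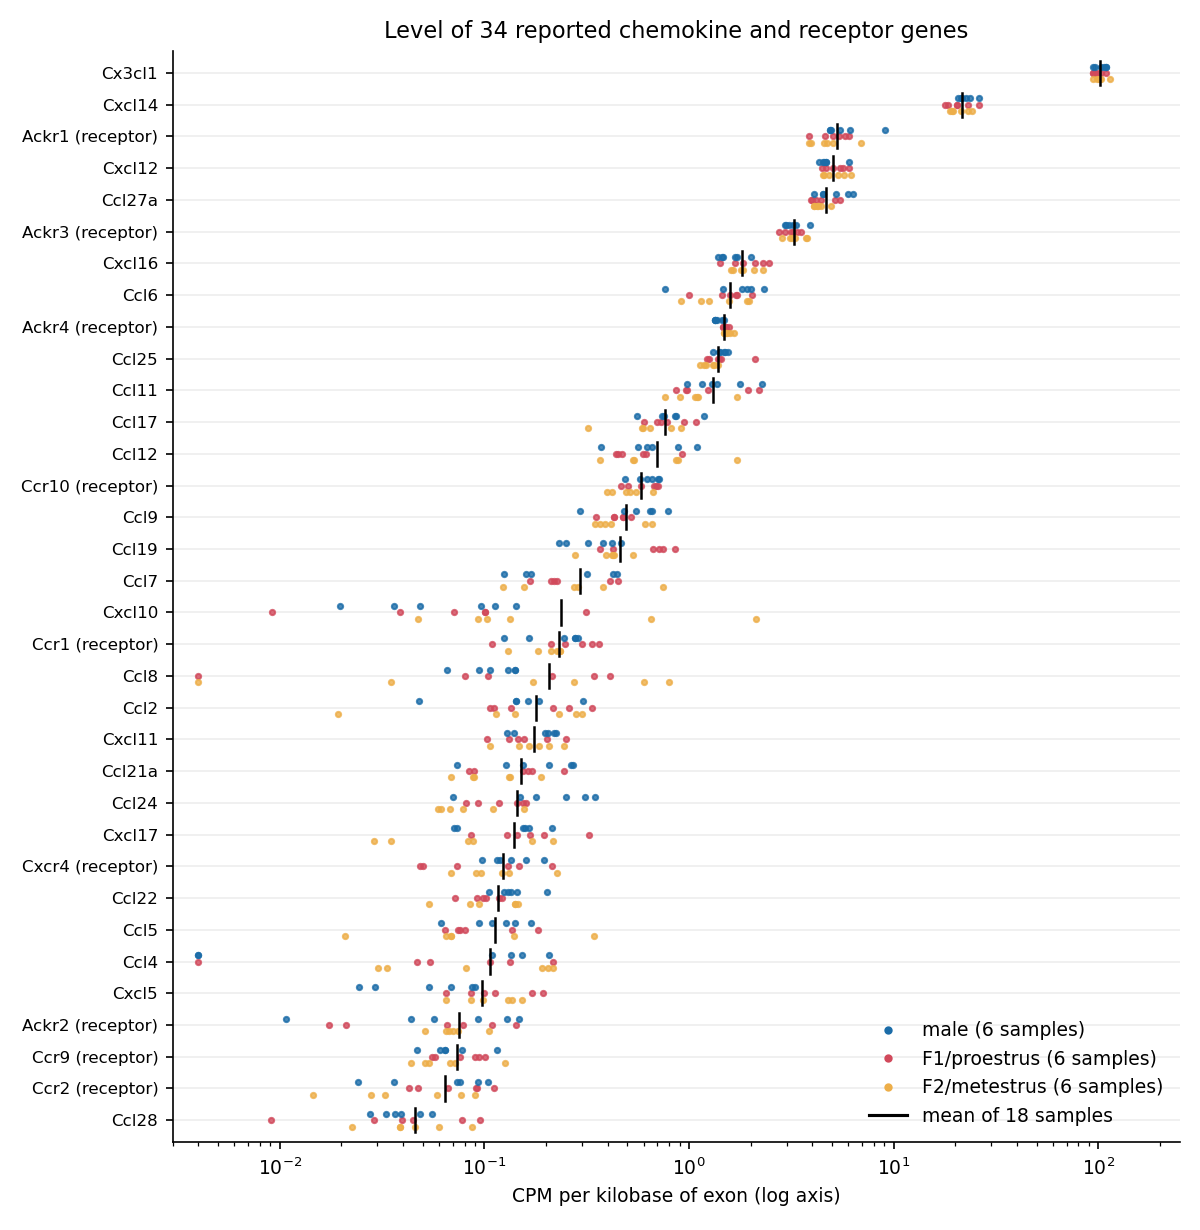
Level of 34 of the reported genes in CPM per kilobase of exon on a log axis, with 1 point per sample (6 males, 6 F1/proestrus, 6 F2/metestrus) and a black bar at the mean of 18. *Cx3cl1* stood at 101 and *Cxcl14* at 21.6 CPM per kilobase, apart from all others, and *Cxcl10* was spread most widely. The 5 values of 0 (*Ccl8* in 2 samples and *Ccl4* in 3) are drawn at the left edge.

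The 4 atypical receptors were all among the reported genes, and 3 of them held the top of the receptor order. *Ackr1*, the Duffy receptor of venules and red blood cells, had 5.29 ± 1.23 CPM per kilobase (SD, n = 18), *Ackr3*, a scavenger of CXCL12, had 3.24 ± 0.317 and *Ackr4*, a scavenger of CCL19, CCL21 and CCL25, had 1.48 ± 0.089. *Ackr3* was above *Ackr4*, and *Ackr4* above *Ccr10* (0.579 ± 0.105), in 18 of 18 samples without overlap of their ranges. *Ackr1* shares 361 exon bases with *Cadm3* on the same strand, so reads there cannot be assigned with certainty. The signalling receptors were lower than these 3: *Ccr1*, a receptor of several inflammatory CC ligands, had 0.231 ± 0.0708 and *Cxcr4* 0.123 ± 0.0513 CPM per kilobase. The remaining atypical receptor, *Ackr2*, was lower still, with 0.0748 ± 0.0404 CPM per kilobase. *Ccr2*, the receptor of CCL2 on monocytes, was the lowest reported receptor per kilobase of exon, with 0.0643 ± 0.0299 CPM. The next receptor in the order was above it in 10 of 18 samples only. Per kilobase of coding length *Ccr2* had 0.388 CPM, above *Cxcr4* (0.207) and *Ackr2* (0.206).

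The relation of ligand and receptor levels was uneven. The summed mean of the 25 ligands was 143 CPM per kilobase and that of the 10 receptors 11.5, so that ligands took 92.6% of the total. The median member was similar in both classes, at 0.294 for ligands and 0.277 CPM per kilobase for receptors. All 4 atypical receptors were reported, against 5 of 11 CC receptors and 1 of 7 CXC and XC receptors.

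Of the 34 genes not reported, 26 had some counts and 8 had none in any sample. *Ccl21c* and *Cxcl15* were among the latter. *Ccl21c* is 1 of several *Ccl21* copies in the genome and only uniquely mapped reads were counted, so its 0 counts set no limit on its level. For *Cxcl15*, 0 counts allow at most the floor of 3 counts in a sample. The ligands and receptors of neutrophils were close to it. *Cxcl1* had 0 to 12 counts, *Cxcl2* had 0 to 5 and *Cxcl3* had 0 to 2 counts per sample. *Cxcr2*, their receptor on neutrophils, had 2 to 23 counts in males with a median of 6.5, and 0 to 10 in females with a median of 2. The highest count of *Cxcr2* was 23 in male sample 1, and the groups overlapped. *Cxcr1* had 0 counts in all males and at most 2 in females. Among receptors of lymphocytes, *Cxcr3* had 0 to 14 counts, *Ccr7* had 0 to 10 and *Cxcr6* had 0 to 25 counts. Without the filter on low counts, 0 of the 26 genes with counts passed the FDR by edgeR in males against females, where 0.105% of all genes in that fit did. At an unadjusted p under 0.05 stood 3 of them, *Cxcr2*, *Cxcr5* and *Ccr4*, where 10.4% of all genes did. *Cxcr2* had a log2 fold change of 1.497 (SE 0.62, interval 0.21 to 2.78, adjusted p = 0.461 by edgeR), while *Cxcl1* had -0.56 (interval -1.65 to 0.54). Between the female groups 0 of 26 passed the FDR, and 4 (*Cxcl3*, *Cxcl9*, *Cxcr6* and *Xcr1*) had an unadjusted p under 0.05, where 3.99% of all genes did. *Cxcr5*, *Ccr4* and *Xcr1* are named because of these values.

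The first comparison asked whether chemokine genes differ between males and females. No member passed an FDR of 5% by edgeR's quasi-likelihood test: 0 of the 35 reported genes were called, where 0.197% of all tested genes (49 of 24862) were. DESeq2, which called 0.644% of all tested genes, and limma voom also called 0 members. At an unadjusted p under 0.05 stood 7 of the 35, where 9.72% of all tested genes did. The fold changes (log2, males against females) were positive for 19 and negative for 16 members, with a median of 0.08 over the members and -0.00 over all tested genes. For 28 members the 95% interval of the fold change lay within 2-fold in either direction, and for 15 within 1.5-fold. In none of the 35 did the ranges of males and females fall apart, where 0.125% of all tested genes did. In bulk tissue, fewer cells of a type and less RNA per cell cannot be told apart.

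**Figure D2:**
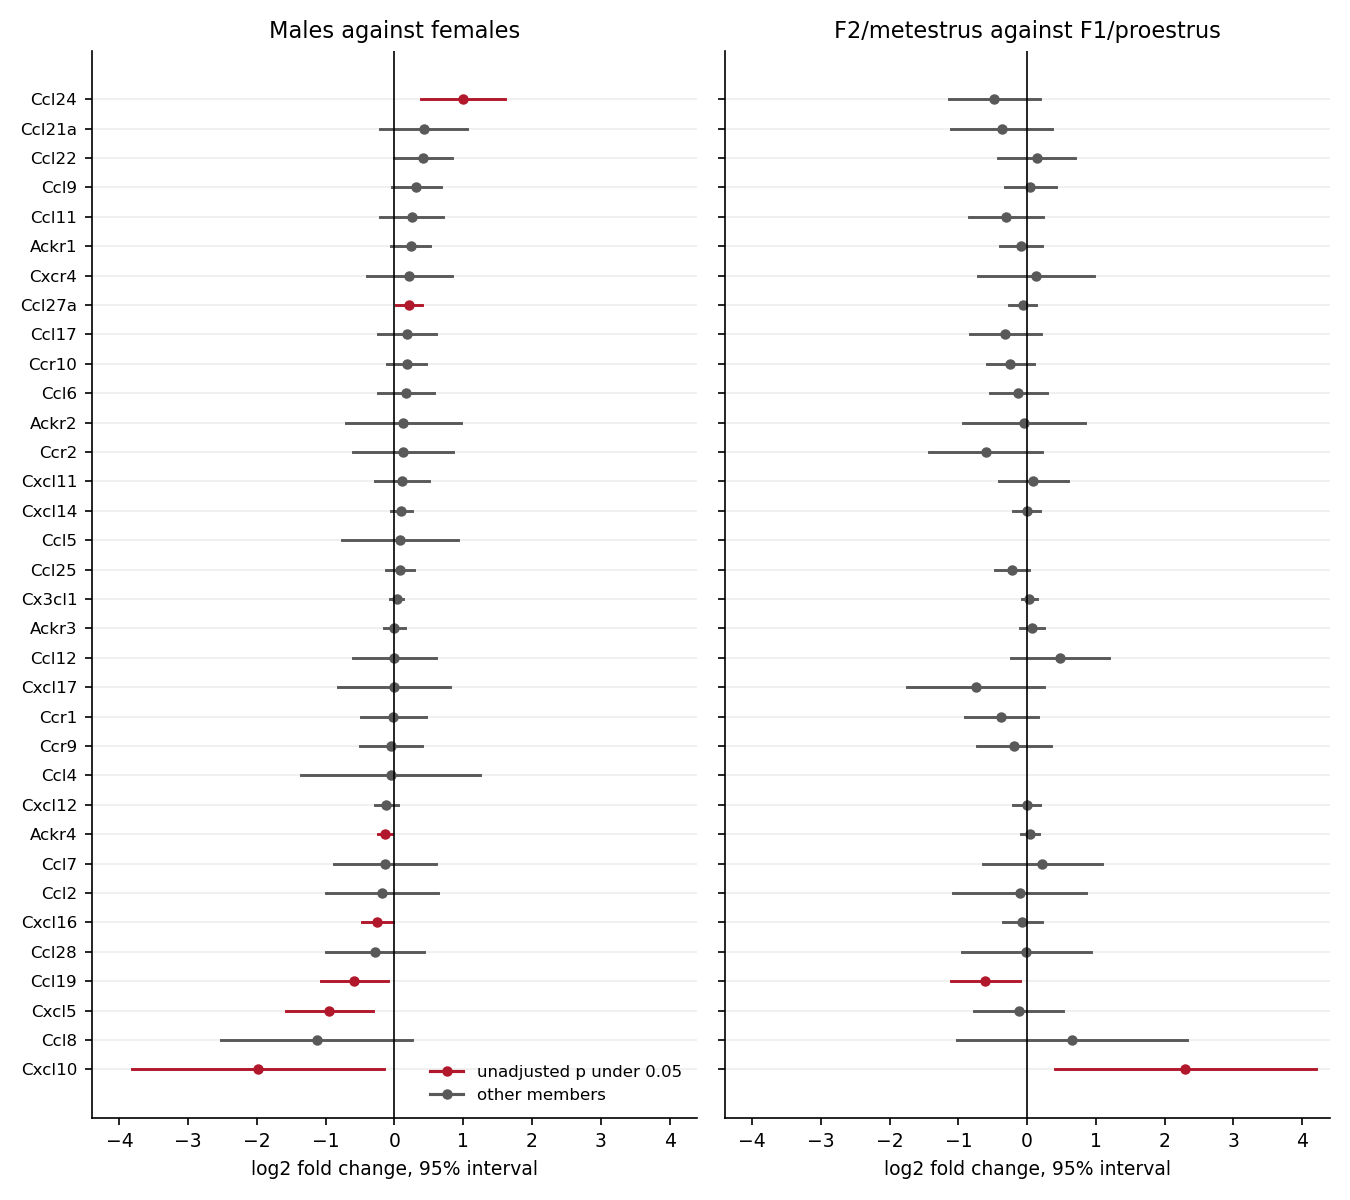
Fold change (log2) with its 95% interval for the reported genes, in males against females (left, 34 genes drawn) and in F2/metestrus against F1/proestrus (right, 32 genes drawn), ordered by the left panel. Red marks an unadjusted p under 0.05, in 7 genes on the left and 2 on the right. *Cx3cl1*, *Ackr3* and *Ackr4* had narrow intervals near 0, and *Cxcl10* had the widest distance from 0 in both panels.

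The 7 were *Ccl24* and *Ccl27a*, with higher means in males, and *Cxcl5*, *Ackr4*, *Ccl19*, *Cxcl10* and *Cxcl16*, with lower means in males. *Ccl24* (ENSMUSG00000004814, chr5:135569937-135573049, GRCm38, minus strand) encodes eotaxin-2, a ligand of *Ccr3* on eosinophils. Its level was 0.0906, 0.279 and 0.45 CPM (lowest, median, highest) in males. It was 0.105, 0.17 and 0.206 CPM in F1/proestrus and 0.0771, 0.0947 and 0.202 in F2/metestrus. Of the males, 4 of 6 stood above every female, and 1 was among the lowest samples. Males against females gave a log2 fold change of 1.003 (SE 0.29, 95% interval 0.39 to 1.61), with an adjusted p = 0.252 by edgeR's quasi-likelihood test. The value was 0.59 in the first library series and 1.49 in the second. The 8 border macrophage markers, cells of the meninges and vessels, summed to 35.2 to 52.3 CPM in males and 26.3 to 55.5 CPM in females. Of these 8 genes 7 had a positive fold change and 3 an unadjusted p under 0.05, where 9.72% of all tested genes had one. The part of these cells in the *Ccl24* values was not tested.

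*Cxcl5* (ENSMUSG00000029371, chr5:90759360-90761624, plus strand) encodes a neutrophil chemokine that acts through *Cxcr2*. It had 0.0453, 0.114 and 0.168 CPM in males, 0.121, 0.197 and 0.359 CPM in F1/proestrus, and 0.121, 0.212 and 0.285 CPM in F2/metestrus (lowest, median, highest). All 6 males were below the median of the females, and 3 of 6 were below every female. These are low counts, 4 to 20 per male sample and 11 to 41 per female sample, so the lowest males were close to the floor of 3 counts. Its log2 fold change was -0.95 (SE 0.30, interval -1.58 to -0.32), with an adjusted p of 0.310 by edgeR. The direction was the same against F1/proestrus (-1.01) and F2/metestrus (-0.88), and in the first (-0.77) and second library series (-1.11).

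The neutrophil markers ran the other way. Of 12 marker genes, such as the calprotectin subunit *S100a8* and the granule proteins *Mpo* and *Camp*, 11 were tested between the sexes. All 11 had a positive fold change and an unadjusted p under 0.05, where 9.72% of all tested genes had such a p. Their summed level was 23.6 to 42.8 CPM in males and 7.44 to 17.3 CPM in females, without overlap. The list holds *Lcn2* and *Mpo*, which the paper had reported as higher in males from these same samples. The count and the sum are therefore no independent evidence. *Lcn2* alone had a mean of 9.70 CPM in males and 2.47 CPM in females. *Lcn2* (lipocalin 2) had a log2 fold change of 1.97 (adjusted p = 3.0e-04 by edgeR) and *Mpo* (myeloperoxidase) of 1.37 (adjusted p = 0.0161), and the other 9 did not pass the FDR. The Schwann cell markers, genes of peripheral myelin, also had higher values in males: 6 of 6 were positive with a median log2 fold change of 0.57, 5 had an unadjusted p under 0.05, and *Ncmap* passed the FDR with 0.67 (adjusted p = 0.00654 by edgeR). They summed to 1117 to 2504 CPM in males and 780 to 1420 CPM in females, with overlap. Beside them stood the *Cxcl5* values above and the counts of *Cxcl1*, *Cxcl2* and *Cxcr2* close to the floor. Without the filter on low counts, the log2 fold change of *Cxcr2* was positive like the markers, at 1.497 (adjusted p = 0.461 by edgeR). Those of *Cxcl1* (-0.56) and *Cxcl2* (-0.31) were negative. What part neutrophils or Schwann cells had in any member's values was not tested.

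*Ccl19* and *Ackr4* are a ligand and its scavenger. *Ccl19* (ENSMUSG00000071005, chr4:42754525-42756577, minus strand) attracts dendritic cells and T cells through *Ccr7*. It had 0.2, 0.304 and 0.404 CPM in males, 0.319, 0.599 and 0.738 CPM in F1/proestrus, and 0.239, 0.366 and 0.461 CPM in F2/metestrus (lowest, median, highest). Of the F1/proestrus samples 4 of 6 were above every other sample, and the other 2 lay within the ranges of the males and F2/metestrus, which overlapped. The log2 fold change of males was -0.85 (unadjusted p = 0.00154, adjusted p = 0.342 by edgeR) against F1/proestrus and -0.25 (adjusted p = 0.802) against F2/metestrus, and -0.59 (SE 0.23, adjusted p = 0.414) against all females. Further copies of *Ccl19* in the genome, of which *Ccl19-ps3* had 2 to 14 counts, make the assignment of its reads uncertain.

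*Ackr4* (ENSMUSG00000079355, chr9:104084157-104126933, minus strand) had one of the smallest spreads of the members. It had 7.19, 7.29 and 7.96 CPM in males, 7.86, 8.04 and 8.44 CPM in F1/proestrus, and 7.94, 8.21 and 8.94 CPM in F2/metestrus (lowest, median, highest). Thus 5 of 6 males were below every female, by a small margin. On the log2 scale the fold change was -0.14 (SE 0.05, interval -0.24 to -0.04), with an adjusted p = 0.357 by edgeR. *Ackr4* shares 479 exon bases with *Acad11* on the opposite strand, whether the counting used the strand is not given in the sources used here, and *Acad11* had a log2 fold change of -0.11 (adjusted p = 0.379).

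*Cxcl16* (ENSMUSG00000018920, chr11:70453983-70459984, minus strand) had 4.21, 4.76 and 6.03 CPM in males, 4.29, 5.95 and 7.39 CPM in F1/proestrus, and 4.86, 5.5 and 6.93 CPM in F2/metestrus (lowest, median, highest). The groups overlapped, and 5 of 6 males were below the female median. The log2 fold change was -0.25 (SE 0.11, adjusted p = 0.487 by edgeR). It shares 552 exon bases with *Zmynd15* on the opposite strand, which had a log2 fold change of -0.48 (adjusted p = 0.323). *Ccl27a* (ENSMUSG00000073888, chr4:41769467-41774247, minus strand) had 9.7, 11.6 and 15.01 CPM in males, 9.38, 10.2 and 13.03 CPM in F1/proestrus, and 9.68, 10.1 and 11.8 CPM in F2/metestrus. Only 2 of 6 males were above every female, both in the second library series. Its log2 fold change was 0.21 (SE 0.09, adjusted p = 0.478 by edgeR), at 0.05 in the first series and 0.33 in the second. A test of the difference between the series gave 0.27 (log2, SE 0.13, adjusted p = 0.970 by edgeR). *Ccl27a* shares 8 exon bases with *Il11ra1* on the opposite strand. *Il11ra1* had a log2 fold change of 0.15 between the sexes (adjusted p = 0.501 by edgeR). Between the library series it had 0.23 (log2, adjusted p = 5.74e-04 by edgeR). Further copies of *Ccl27* in the genome make the assignment of *Ccl27a* reads uncertain.

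**Figure D3:**
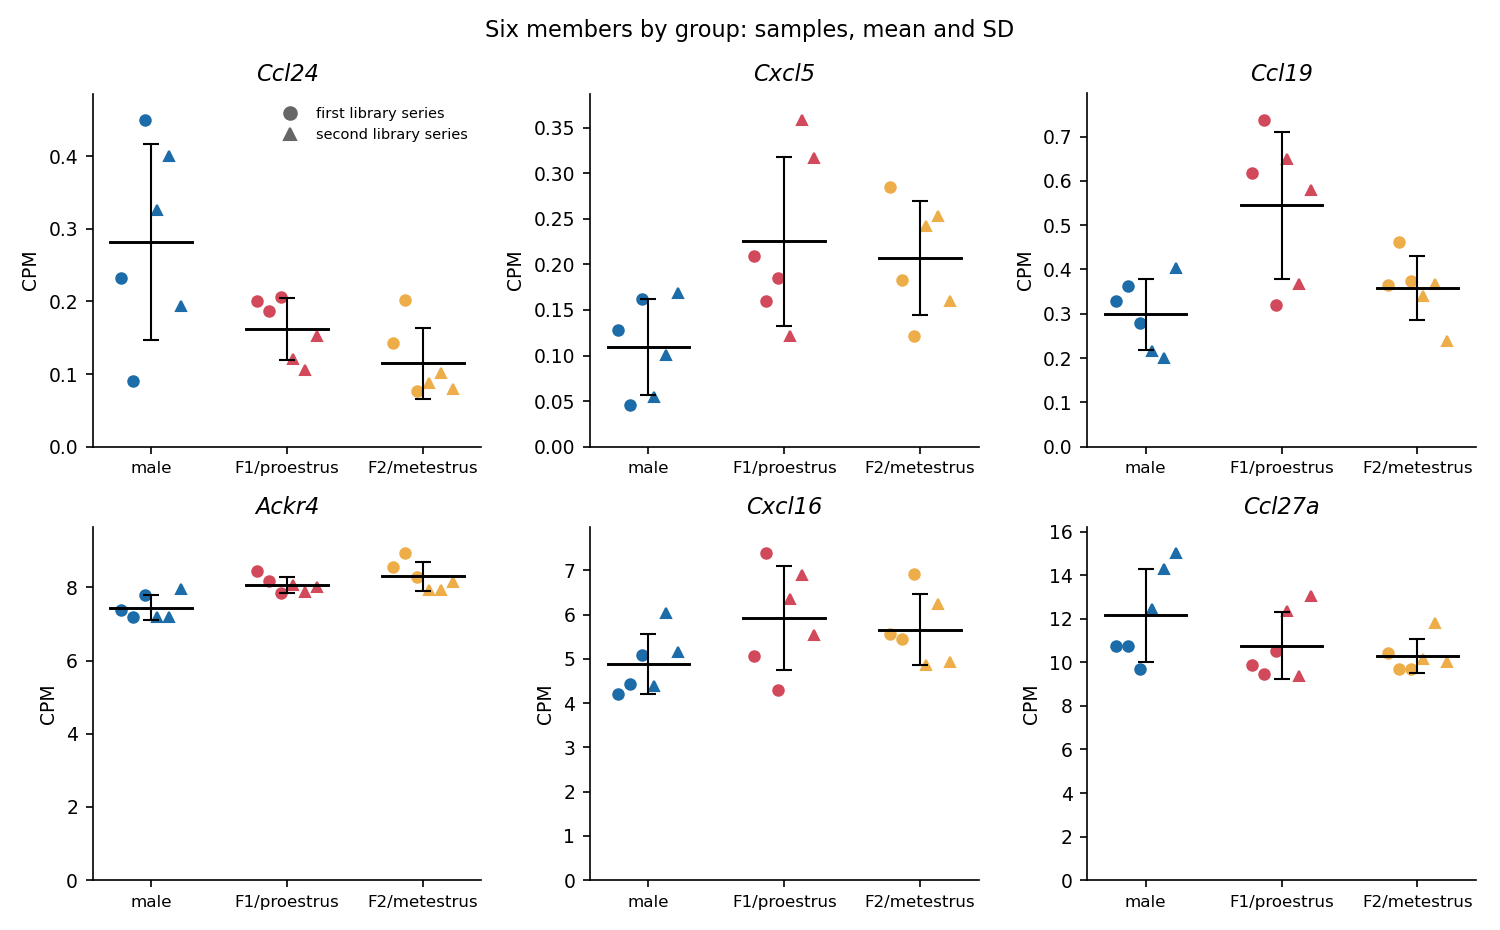
CPM of *Ccl24*, *Cxcl5*, *Ccl19*, *Ackr4*, *Cxcl16* and *Ccl27a* in each sample by group, with mean and SD (n = 6 per group). Circles are the first library series and triangles the second, and each axis starts at 0. Of the males, 4 of 6 are above all females for *Ccl24* and 5 of 6 below all females for *Ackr4*, and no panel shows 2 sexes without overlap.

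The most abundant members differed little between the sexes. *Cx3cl1* had a mean of 405 ± 26.2 CPM in males (SD, n = 6) and of 396 ± 23.7 CPM in females (SD, n = 12), with a log2 fold change of 0.03 and a 95% interval of -0.06 to 0.13. Its receptor *Cx3cr1* had a fold change of 0.02 (log2, SE 0.09, adjusted p = 0.940 by edgeR). *Cxcl14* had 0.10 (interval -0.05 to 0.26) and *Cxcl12* -0.12 (interval -0.29 to 0.05), both log2. For the receptors of CXCL12 the values were -0.00 for *Ackr3* (interval -0.16 to 0.15) and 0.22 for *Cxcr4* (interval -0.40 to 0.84). These intervals leave room for changes of under 1.5-fold in *Cx3cl1*, *Cxcl12*, *Cxcl14* and *Ackr3*, and for larger ones in *Cxcr4*.

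The monocyte pair was low and varied. *Ccl2*, which recruits monocytes, had 0.0543 to 0.345 CPM in males and 0.022 to 0.381 CPM in females, and *Ccr2* had 0.163 to 0.705 CPM in males and 0.0979 to 0.756 CPM in females. Both male ranges lay inside those of the females. The log2 fold changes were -0.18 for *Ccl2* (interval -0.99 to 0.63) and 0.13 for *Ccr2* (interval -0.60 to 0.85), so that a change of 1.5-fold in either direction could not be told from none. *Ackr1* had 8.26 ± 2.27 CPM in males (SD, n = 6) and 7.01 ± 1.32 CPM in females (SD, n = 12), where male sample 4 stood highest. Its log2 fold change was 0.23 (interval -0.05 to 0.52), and without that sample 0.07. *Cadm3*, which shares exon bases with *Ackr1* on the same strand, had a log2 fold change of 0.22 (adjusted p = 0.607 by edgeR). *Ccr10* had 0.18 (interval -0.10 to 0.46) on the log2 scale.

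By role, the fold changes of males against females had a median of 0.09 (log2) over the 17 CC ligands, -0.12 over the 7 CXC ligands and 0.06 over the 4 atypical receptors. Of the 7 CXC ligands, 5 had a negative value, and 0 passed the FDR by edgeR. The 3 genes *Cxcl5*, *Cxcl10* and *Cxcl16* had an unadjusted p under 0.05, where 9.72% of all tested genes had one. The value of *Cxcl10* rested on F2/metestrus samples 2 and 5.

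The second comparison asked whether the members differ between the 2 female groups. Of the 35 genes 33 had enough counts for the test, *Ccl4* and *Ccl5* being left out. None passed the FDR by edgeR, where 0% of all tested genes (0 of 24042) did and 596 genes (2.48%) had an unadjusted p under 0.05. DESeq2 called 2 genes (0.00832%), neither of them a member, and limma voom called 0. The log2 fold changes of F2/metestrus against F1/proestrus were positive for 12 and negative for 21 members, with a median of -0.07. At an unadjusted p under 0.05 stood 2 of 33 members, *Cxcl10* and *Ccl19*. In none did the groups fall apart, where 0.108% of all tested genes did.

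*Cxcl10* (ENSMUSG00000034855, chr5:92346638-92348889, minus strand) encodes IP-10, an interferon-inducible attractant of activated T and NK cells. It had 0.0445, 0.162 and 0.321 CPM in males, 0.0206, 0.194 and 0.704 CPM in F1/proestrus, and 0.107, 0.265 and 4.81 CPM in F2/metestrus (lowest, median, highest). F2/metestrus sample 5, with 379 counts, and sample 2, with 153 counts, were above all others, and the other 4 F2/metestrus samples lay within the range of F1/proestrus. The log2 fold change was 2.30 between the female groups (SE 0.89, unadjusted p = 0.0210, adjusted p = 0.99998 by edgeR) and was -0.17 without these 2 samples. Between the sexes it was -1.99 (SE 0.88, adjusted p = 0.481) and -0.38 without the 2 samples. Over all 18 samples the coefficient of variation of *Cxcl10* was 210%, against 14.4% from counting alone. *Cxcl10* shares 133 exon bases with *Art3* on the opposite strand, and *Art3* had a log2 fold change of 0.49 (adjusted p = 0.0380) between the sexes, the opposite direction.

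*Cxcl9*, a neighbouring gene with the same receptor, was not among the reported genes, but its highest counts were in the same samples. It had 99 counts in F2/metestrus sample 5, 57 in F2/metestrus sample 2 and 40 in male sample 1, and at most 11 in each of the other 15 samples. *Cxcl11*, counted here as the third ligand of *Cxcr3*, is annotated as a polymorphic pseudogene, so its RNA need not stand for a working ligand. It did not share this order: F2/metestrus sample 5 had 0.406 CPM, the second lowest of the 18. Of *Cxcl11*, 1582 exon bases are shared with the pseudogene *Gm2673* on the opposite strand. *Cxcr3* itself had 14 counts in F2/metestrus sample 5 and 14 in F1/proestrus sample 2. *Cxcr6*, the receptor of CXCL16 on T cells, had 25 and 23 counts in F2/metestrus samples 5 and 2, its highest values.

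The 16 interferon-inducible genes, a list written with earlier results of these data known, are given beside *Cxcl10*. Their summed level was 323 CPM in F2/metestrus sample 5 and 219 CPM in sample 2, and 115 to 204 CPM in the others. Spearman's rho with the summed level over the 18 samples was 0.744 for *Cxcl10*, 0.604 for *Cxcl9*, 0.521 for *Cxcl16* and 0.214 for *Cxcl11*, as a description of samples that share library and depth. The same rho was 0.499 for *Ccl8*, 0.380 for *Cxcl13*, 0.0588 for *Ccl5* and 0.0361 for *Ccl12*. F2/metestrus sample 4 had the third highest sum, 204 CPM, but only 0.231 CPM of *Cxcl10* and 3 counts of *Cxcl9*. Between the female groups all 16 genes had a positive fold change, with a median of 0.42 against -0.00 over all tested genes. Of the 16, 11 had an unadjusted p under 0.05, where 2.48% of all tested genes had one, and 0 passed the FDR by edgeR. In males against females all 16 had a negative fold change, with a median of -0.43. Here 11 had an unadjusted p under 0.05, where 9.72% of all tested genes had one, and 0 passed the FDR by edgeR. The list holds *Gbp10*, which the paper had reported as higher in F2/metestrus from these same samples. The counts in both comparisons are therefore no independent evidence, and both include F2/metestrus samples 2 and 5. The 9 T and NK cell markers summed to 3.55 CPM in F2/metestrus sample 2 and 3.63 CPM in sample 5. The highest sum was 3.77 CPM, in F2/metestrus sample 4, and the other 15 samples had 1.99 to 3.26 CPM. What part these cells or interferon had in the *Cxcl10* values was not tested.

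**Figure D4:**
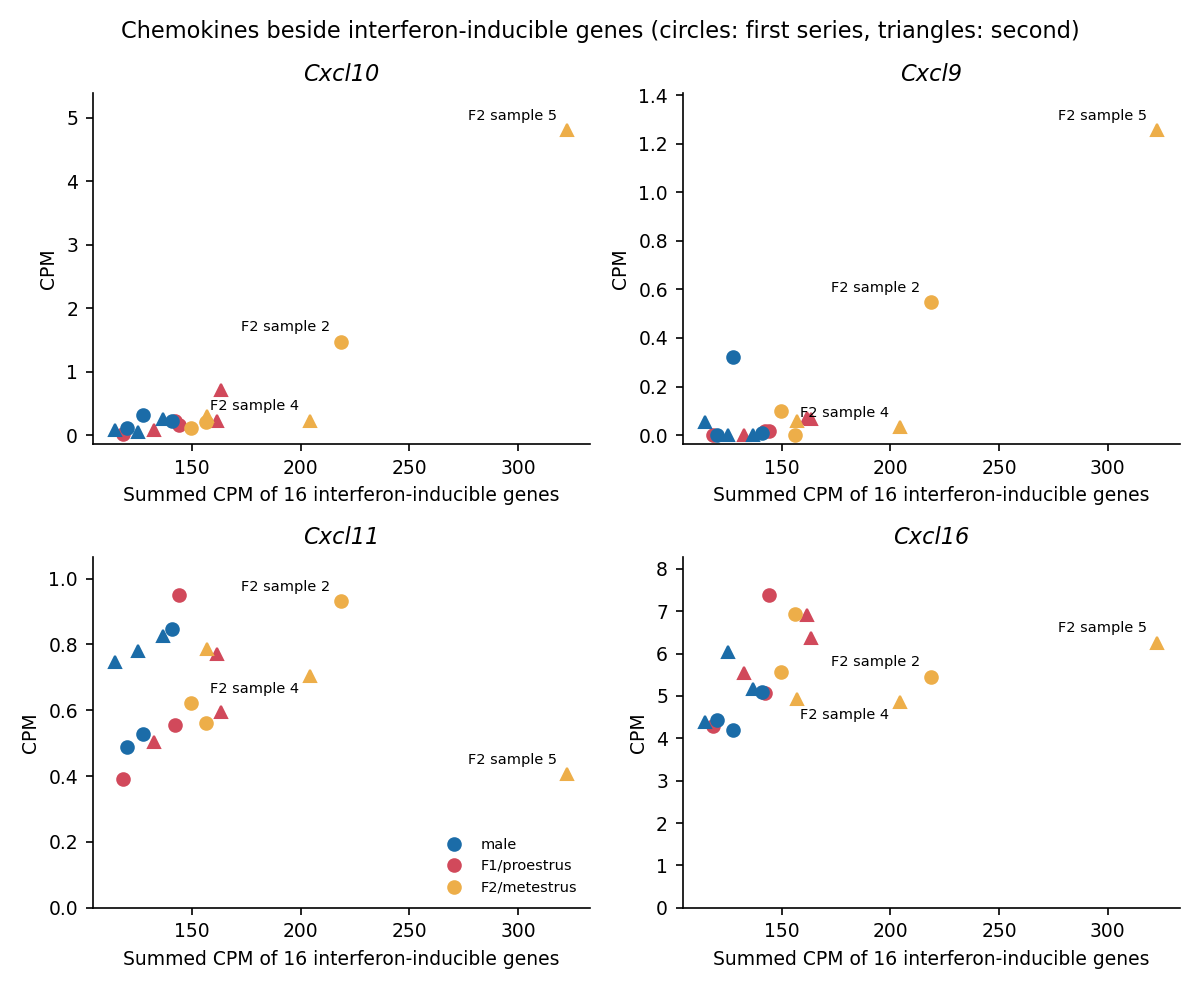
CPM of *Cxcl10*, *Cxcl9*, *Cxcl11* and *Cxcl16* in each of the 18 samples against the summed CPM of 16 interferon-inducible genes. F2/metestrus samples 2 and 5 are apart for *Cxcl10* (1.47 and 4.81 CPM) and *Cxcl9* (57 and 99 counts), while *Cxcl11* in sample 5 is at 0.406 CPM and *Cxcl16* in both lies within the range of the other samples.

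*Ccl19* was the second member between the female groups, with a log2 fold change of -0.61 (SE 0.23, unadjusted p = 0.0200, adjusted p = 0.99998 by edgeR) in F2/metestrus against F1/proestrus. It was -0.50 in the first library series and -0.75 in the second, and no F2/metestrus sample was above the F1/proestrus median of 0.599 CPM. *Cx3cl1* had a fold change of 0.03 (log2, interval -0.08 to 0.15), *Cxcl12* of -0.01 (interval -0.21 to 0.19), *Cxcl14* of -0.01 (interval -0.20 to 0.19) and *Ackr4* of 0.04 (interval -0.09 to 0.17). *Ccr2* had -0.61 (log2, interval -1.42 to 0.21), with 3 of 6 F2/metestrus samples below every F1/proestrus sample. It was -1.18 without F2/metestrus samples 2 and 5, a fit chosen after seeing the data. These 2 samples had the highest *Ccr2* of F2/metestrus (0.519 and 0.609 CPM), so a more negative value without them followed from the choice.

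The 2 library series were compared as well. What the numbers mark is not given in the sources used here, so handling and separate sets of animals cannot be told apart. With the group as a covariate, 26.9% of all tested genes (6774 of 25180) passed the FDR by edgeR between the series, 14.2% higher and 12.7% lower in the second. Of the members 3 of 35 did, and 4 of 35 had an unadjusted p under 0.05, where 37.6% of all tested genes had one. *Cxcl12* fell by 0.22 on the log2 scale (SE 0.06, adjusted p = 0.00784), from 44.7 ± 5.08 CPM in the first series (SD, n = 9) to 38.2 ± 2.61 CPM in the second. *Ccl27a* rose by 0.25 (SE 0.07, adjusted p = 0.0106) and *Cxcl14* by 0.20 (SE 0.06, adjusted p = 0.0131), both log2 and by edgeR. The series overlapped for each of the 3 genes. *Cx3cr1* also fell, by 0.21 (log2, SE 0.06, adjusted p = 0.0130). For *Cxcl14* the call was lost without F1/proestrus sample 2, where the value was 0.16 (log2), or without male sample 5, where it was 0.16. A sex difference that depends on the series was found for 0 members by edgeR, with 1 member, *Ccl25*, at an unadjusted p under 0.05, where 0% of all tested genes (0 of 26075) passed the FDR and 4.75% had such a p. DESeq2 and limma voom called 0 members there too.

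**Figure D5:**
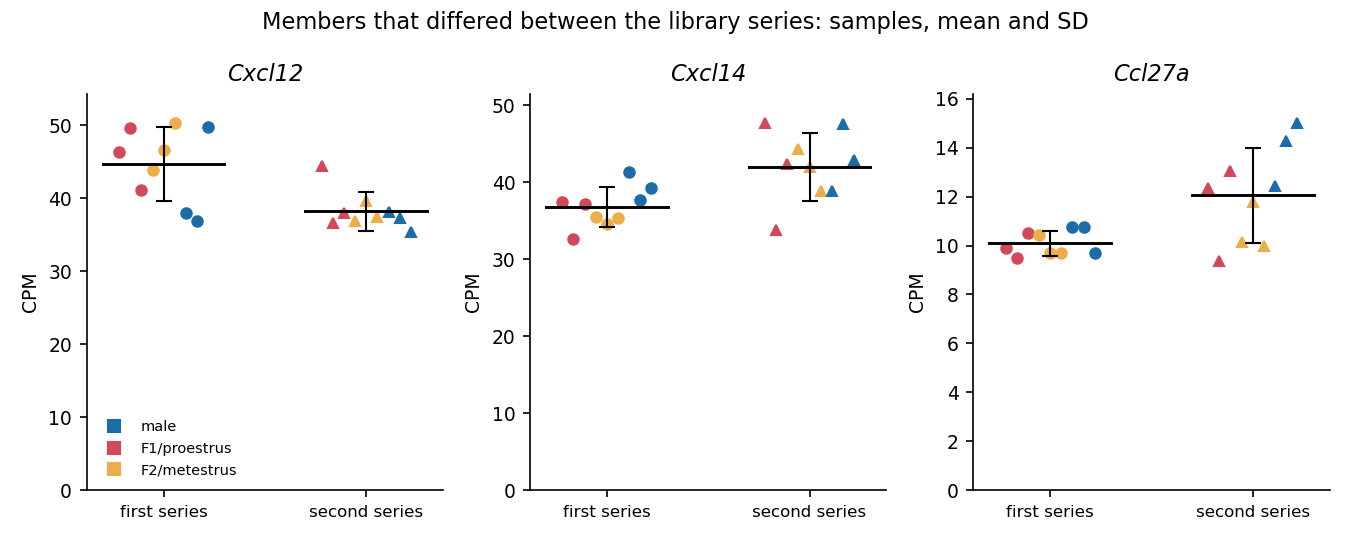
CPM of *Cxcl12*, *Cxcl14* and *Ccl27a* in each sample of the first and second library series, coloured by group, with mean and SD (n = 9 per series). *Cxcl12* was lower and the other 2 were higher in the second series, with overlap in each panel.

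Of the chemokine system genes that the naming rule leaves out, 0 of 7 passed the FDR by edgeR between the sexes and 0 of 7 between the female groups, with 0 and 1 at an unadjusted p under 0.05. Over all tested genes 0.197% and 0% passed the FDR in these comparisons, and 9.72% and 2.48% had such a p. Males against females, the decoy receptor *Ccrl2* had a log2 fold change of -0.17 (adjusted p = 0.640 by edgeR), and the platelet chemokines *Pf4* and *Ppbp* had 0.28 (adjusted p = 0.601) and 0.53 (adjusted p = 0.782). The machinery that serves the receptors was examined with lists of genes outside the family. Between the sexes, 0 of 18 G proteins and regulators (such as *Gnai2*, *Arrb2* and *Rgs10*), 0 of 25 downstream signalling genes (such as *Pik3cg*, *Dock2* and *Rac2*), 0 of 11 proteases and glycan enzymes that cut or bind chemokines (such as *Dpp4* and *Adam17*) and 0 of 11 tested genes of the NF-kB pathway passed the FDR by edgeR. At an unadjusted p under 0.05 stood 3, 5, 0 and 1 of them, where 9.72% of all tested genes did. Their medians were 0.09, 0.01, -0.04 and 0.02 (log2). Of the G proteins and regulators 16 of 18 had a positive value. Between the female groups 0 of these genes passed either, with 0 of 17, 1 of 25, 0 of 11 and 1 of 10 tested at such a p, where 2.48% of all tested genes were. Between the library series, where 26.9% of all tested genes were called, 6 of 18 G proteins and regulators rose and 2 fell, and 3 of 25 downstream genes rose and 4 fell. Of the proteases and glycan enzymes 2 of 11 fell, of the NF-kB genes 2 of 11 rose, and of the 7 chemokine system genes *Cx3cr1* and *Pitpnm3* fell.

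Across the 18 samples the members varied largely apart from each other. Of 595 pairs the median Spearman's rho of log2 CPM was 0.02, and 4 pairs were above 0.7. The highest was *Ccl6* with *Ccl9* (0.853), which lie side by side on chromosome 11 and are both CC ligands of *Ccr1*. It was followed by *Ccl27a* with *Cxcl14* (0.748), both of which moved with the library series and, among receptors, by *Cxcr4* with *Ackr1* (0.725). With the mean of each series removed, Pearson's r was 0.868 for the first pair and 0.585 for the second. The points share library and depth, and these values are descriptions.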

How the data were processed

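For the 18 ipsilateral DHSC samples the authors deposited raw counts per Ensembl gene without normalization, made per the labels and methods by unique mapping of reads to mm10 with Subread (2.0.3 in the submitters' processing notes) and counting on exons with featureCounts. Whether strand was used is not given in the sources used here. The labels describe SMART-Seq and Nextera XT libraries, the methods a TruSeq kit. A second deposited table holds values of the authors' own DESeq2 comparison, and only its gene symbols were used. Samples were grouped by their titles. The labels number the samples of a group without tying them to animals, so p-values measure the spread between these samples. Library series were read from the numbers in the column names of the count table.

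Counts were filtered with filterByExpr (minimum count 10, minimum total 15), normalized with TMM and tested with edgeR 4.0.16 (R 4.3.3), quasi-likelihood test, two-sided, Benjamini-Hochberg over all tested genes, FDR 5%. The SE was taken from the log2 fold change and the F statistic, and intervals cover 95%. Coordinates and exon lengths are from GENCODE vM21 (GRCm38), and promoter windows from RefSeq. All 69 member IDs were found there. The script was tested on simulated data. Alternatives were DESeq2 1.42.0, limma voom 3.58.1 with quality weights, DESeq2 size factors, other filters, the replicate block, the series as covariate or alone, each female group alone, 3 groups in the fit and leaving out each sample. Fits without F2/metestrus samples 2 and 5 and the alternatives of the series interaction were chosen after seeing the data. Genes described in full were members past the FDR, members with an unadjusted p under 0.05 between the sexes or female groups, the 5 ligands and 5 receptors with the highest level per length, and *Cxcl1*, *Cxcl2*, *Cxcl5*, *Cxcr2*, *Ccl2*, *Ccr2*, *Cxcl10* and *Cxcr3* where reported. Of other genes, *Cx3cr1*, *Ccrl2*, *Pf4*, *Ppbp*, list genes past the FDR and genes overlapping a member could be named. *Cxcl9*, *Cxcl11*, *Cxcr6*, *Cxcr1*, *Cxcl3*, *Ccr7* and *Ackr2* were added after their values were seen. The members and lists were chosen with earlier results of these data known. Values of 1 receptor are not reported here, and it is not drawn, but it is included in the counts.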

Additional observations from a re-analysis of the deposited data

Results flagged for a closer look

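Among 48 groups of 6 samples (16 genes described in full, 3 groups each), 5 held a sample whose gap to the nearest other exceeded Dixon's 95% critical value. Chance gives about 1 in 20. *Ackr1* was 12.7 CPM in male sample 4, against 6.83 to 8.58 CPM in the other males. *Cxcl12* was 49.7 CPM in male sample 3, against 35.4 to 38.1 CPM. *Ccl27a* was 11.8 CPM in F2/metestrus sample 5, against 9.68 to 10.4 CPM. *Cxcl10* was 4.81 CPM in F2/metestrus sample 5, against 0.107 to 1.47 CPM, and 0.704 CPM in F1/proestrus sample 4, against 0.0206 to 0.228 CPM. The same F2/metestrus sample 5 thus stood out for 2 of the genes.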

How the results depend on the processing

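No member passed the FDR between the sexes or between the female groups under any alternative. The number of all genes called between the sexes, 49, was 133 once the library series entered as a covariate, 160 by DESeq2, 16 in the first and 13 in the second series alone, 23 against F1/proestrus alone and 32 against F2/metestrus alone, and 25 to 77 when each sample was left out (25 without male sample 5, 30 without male sample 4 and 77 without F1/proestrus sample 5). DESeq2 called 2 genes between the female groups and 1 in the interaction of sex and series. With the replicate number as a block, 112 genes and 0 members were called between the sexes and 0 genes between the female groups. Same-numbered samples deviated together with correlations of -0.105 to 0.228 over 18 pairs, 4 of which had their own number as the best match, so the numbers were not taken to pair the samples. Between the series 2 to 4 members were called when each sample was left out. *Cxcl10* rested on F2/metestrus samples 2 and 5: between the sexes its log2 fold change was -0.96 without sample 5 and -0.38 without both, and -0.94 with DESeq2 and -0.60 with limma voom. No called value changed sign. Genes near the floor of 3 counts, 0.0240 to 0.0407 CPM, such as *Cxcl1*, *Cxcl2* and *Cxcr2*, had wide intervals.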
